A study of Laccaria bicolor with 18 samples.

Results

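The caps of medium fruiting bodies were compared with the caps of early fruiting bodies of *Laccaria bicolor*, a basidiomycete that forms ectomycorrhizas with trees. The comparison rests on 3 medium cap and 3 early cap libraries, chosen by their labelled tissue and stage, out of 18 RNA-seq libraries from the caps and stipes of early, medium and late basidiocarps. All libraries came from strain S238N, whose basidiocarps grew in a nursery on inoculated Douglas fir seedlings, and the stages are named by their labels, without an age. The titles number the 3 libraries of a group, which are taken here as replicates, and whether a library held a single cap or several is not stated. Medium caps 1, 2 and 3 held 67076499, 53275632 and 38976106 reads counted on gene models, against 40879632, 48602060 and 58535313 reads for early caps 1, 2 and 3. Expression is given as CPM (read counts relative to library size, scaled by edgeR's TMM method), and values of 3 libraries stand in the order of replicates 1, 2 and 3. In libraries from whole tissue, fewer cells of a type and less RNA in each cell cannot be told apart.

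The cap of an agaric carries the gills, on which basidia and spores form, and it expands while the stipe elongates. Expansion needs a fungal wall that can be loosened and rebuilt, a task of chitinases, glucanases and expansin-like proteins, while hydrophobins coat aerial hyphae with a water-repellent layer. In model agarics such as *Coprinopsis cinerea* and *Schizophyllum commune*, zinc finger, homeodomain and other transcription factors switch between the stages of fruiting.

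Medium cap 3 stood apart from medium caps 1 and 2 and lay near the early caps. As distance of a pair of libraries served 1 - r, where r is their Pearson correlation over gene models in log2(CPM + 1). Medium cap 3 was at a mean distance of 0.0227 from medium caps 1 and 2, and of 0.011 from the early caps. Medium caps 1 and 2 were 0.00816 from each other and 0.0225 from the early caps, and the early caps were 0.00606 from each other. Medium cap 3 was also nearer to medium stipes 1 and 2 (0.0145) than medium caps 1 and 2 were (0.0378) and than the early caps were (0.0216). Medium caps 1 and 3 had a biological coefficient of variation of 32.5%, and medium caps 2 and 3 of 35.2%, against 20.5% between medium caps 1 and 2 and 16% to 18% between early caps.

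The tissue label of medium cap 3 was checked with genes that separated early stipes from early caps. The 359 gene models higher in early caps summed to 105134, 121036 and 88174 CPM in the medium caps, against 23411, 16750 and 13444 CPM in the early stipes. The 491 gene models higher in early stipes summed to 45567, 41212 and 33926 CPM in the medium caps, against 136958, 132832 and 163797 CPM in the early stipes. The levels of the early libraries entered the choice of these gene models, and those of the medium libraries did not. In log2(CPM + 1), the stipe-enriched gene models had medians of 4.04, 3.68 and 3.59 in medium caps, against 4.88, 4.88 and 5.18 in medium stipes. Those higher in early caps had medians of 4.12, 4.32 and 3.97 in medium caps, against 3.07, 3.09 and 2.72 in medium stipes. By sums and medians medium cap 3 lay with the caps, as labelled. Its sum of the stipe-enriched gene models was the lowest among the medium caps. Medium cap 3 also held the fewest reads of the 6 cap libraries, and the part of depth in its position was not tested. Results are therefore given with medium cap 3 and without it. Since medium cap 3 was singled out by its own values, leaving it out lowers the spread among medium caps. Counts and adjusted p without it are thus a description, and such p may be too small.

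Of 16485 gene models tested, 178 were higher and 157 were lower in medium caps than in early caps, with an adjusted p under 0.05 in edgeR's quasi-likelihood test and a log2 fold change beyond 1 in either direction. These are 1.08% and 0.952% of those tested. The median log2 fold change was 1.61 over the rises and -1.42 over the falls, with 60 rises and 32 falls beyond 2 in size. The 3 medium cap libraries did not overlap with the 3 early cap libraries in 171 of the 178 rises and in all 157 falls. Such separation was seen in 19.6% of all gene models tested, and since the calls were made on these same libraries nothing is read from the difference. The rises summed to 28103, 20290 and 10418 CPM in the medium caps, against 5294, 5286 and 4998 CPM in the early caps. The falls summed to 4255, 3639 and 5484 CPM in the medium caps, against 14280, 13548 and 13846 CPM in the early caps. Medium cap 3 had the lowest summed level of the rises and the highest of the falls among medium caps, and it was the medium cap nearest to the early caps in 153 of the 178 rises and in 95 of the 157 falls.

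Without medium cap 3 the calls increased to 440 higher and 838 lower gene models, 2.65% and 5.04% of the 16617 tested. Of the calls made with all 3 medium caps, 176 rises and 154 falls were called again, and 264 rises and 684 falls were called only without it. Leaving out any other cap library lowered the counts, to between 84 and 137 rises and between 59 and 140 falls. A total of 66 rises and 39 falls were called in each of the 6 fits that left out a cap library. DESeq2 called 260 rises and 237 falls, and limma's voom with a weight for each library called 726 and 701, with weights of 2.88, 0.41 and 0.14 for medium caps 1, 2 and 3.

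**Figure D1:**
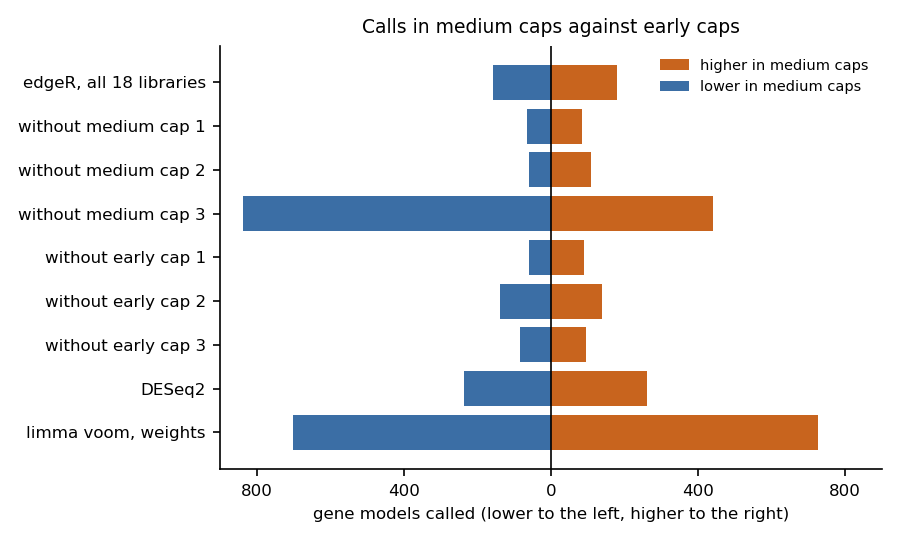
Number of gene models called higher (bars to the right) and lower (bars to the left) in medium caps than in early caps, with all libraries, with each cap library left out, and with 2 other tests. The longest edgeR bars, 440 higher and 838 lower, belong to the fit without medium cap 3.

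The place of medium cap 3 was then read from the 1278 gene models called without it, so that its own values did not enter the choice, although those of the early caps did. On the scale of log2(CPM + 1) it lay at a median of 16.8% of the way from the early caps to medium caps 1 and 2, with quartiles of -9.38% and 51.5%. It had gone further along the rises, at a median of 30.3%, than along the falls, at 9.75%. For 277 of the 440 rises medium cap 3 lay above every early cap, for 126 it lay among them and for 37 below them. For 363 of the 838 falls it lay below every early cap, for 291 it lay among them and for 184 above them. The same early caps entered the choice of these gene models, so that the shares are a description and have no value for no change to be set against.

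**Figure D2:**
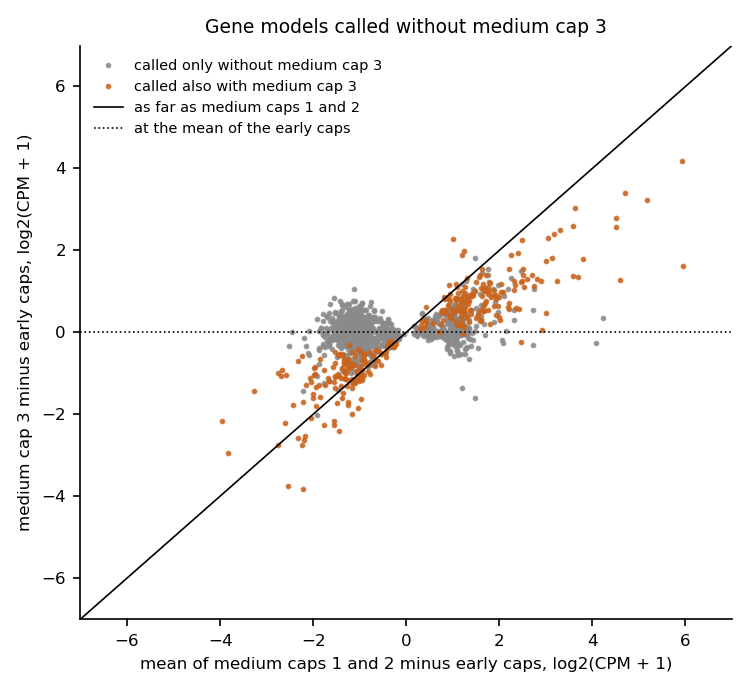
For each of 1278 gene models called without medium cap 3, the difference between medium caps 1 and 2 and the early caps (horizontal axis, log2(CPM + 1)) against the difference between medium cap 3 and the early caps (vertical axis). Points on the solid line would have moved as far in medium cap 3 as in medium caps 1 and 2, and points on the dotted line are at the early cap mean. The median position of medium cap 3 is 30.3% of the way for the rises and 9.75% for the falls.

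The largest rise among called gene models whose libraries did not overlap was that of an aspartic protease of the pepsin type (483465), an enzyme that cuts proteins at acidic pH. It had 504, 261 and 107 CPM in medium caps, against 5.35, 8.46 and 2.55 CPM in early caps. All medium caps were above all early caps, with medium cap 3 lowest, and the log2 fold change was 5.74 ± 0.77 (SE, adjusted p = 0.000741), a 53.4-fold rise. The related aspartic protease LbPR_A12 (191659) had 610, 288 and 166 CPM in medium caps, against 53.4, 45.6 and 42.2 CPM in early caps (log2 fold change 2.91 ± 0.51, adjusted p = 0.00503). In late caps, gene model 483465 averaged 1280 CPM and 191659 averaged 2680 CPM. The next largest annotated rise was a short-chain dehydrogenase (256071), of a family that oxidizes or reduces small metabolites, with 351, 208 and 69.8 CPM in medium caps, against 6.38, 8.92 and 4.8 CPM in early caps (4.97 ± 0.53, adjusted p = 0.000243).

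Wall and surface proteins were among the strong rises. An expansin-like protein (323571), of a group of non-hydrolytic wall-loosening proteins, had 68, 36 and 11.6 CPM in medium caps, against 2.56, 2.75 and 2.6 CPM in early caps. Every medium cap was over every early cap, and the log2 fold change was 3.87 ± 0.49 (adjusted p = 0.000483). It was the only call among 6 expansin-like proteins tested, of which 4 had a positive and 2 a negative fold change, at a median of 0.26. A protein with a Kre9/Knh1 domain (647030), known from yeast for a part in wall beta-glucan assembly, had 259, 187 and 46.5 CPM in medium caps, against 13.5, 24.1 and 16.3 CPM in early caps (3.19 ± 0.66, adjusted p = 0.0145). Hydrophobin LbH14 (318421) had 284, 96.6 and 53.1 CPM in medium caps, against 24.7, 20.2 and 27.3 CPM in early caps (2.59 ± 0.60, adjusted p = 0.0266). In each of these genes medium cap 3 was the lowest medium cap but still above the early caps.

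Further annotated rises covered pigment, RNA-binding and homeobox-type proteins. A protein with a tyrosinase copper-binding domain (185727), an enzyme group that oxidizes phenols to pigment precursors, had 237, 138 and 106 CPM in medium caps, against 21.2, 19.5 and 17.3 CPM in early caps (3.05 ± 0.34, adjusted p = 0.000243). A protein with an RNA recognition motif (297745) had 48.4, 26.7 and 20.2 CPM in medium caps, against 3.29, 3.43 and 1.78 CPM in early caps (3.49 ± 0.51, adjusted p = 0.00137). Both were separated between the stages in every library. A gene model with a DUF89 domain (568771) had 80.8, 53.9 and 32.7 CPM in medium caps, against 4.65, 5.66 and 3.65 CPM in early caps. A homeobox-like gene model (489990), of a domain found in transcription factors, was low, with 1.49, 0.858 and 0.814 CPM in medium caps, against 0.11, 0.25 and 0.0945 CPM in early caps. Its log2 fold change was 2.81 ± 0.47 (adjusted p = 0.00407), and it rests on 90, 44 and 33 reads in medium caps, against 5, 13 and 6 reads in early caps.

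**Figure D3:**
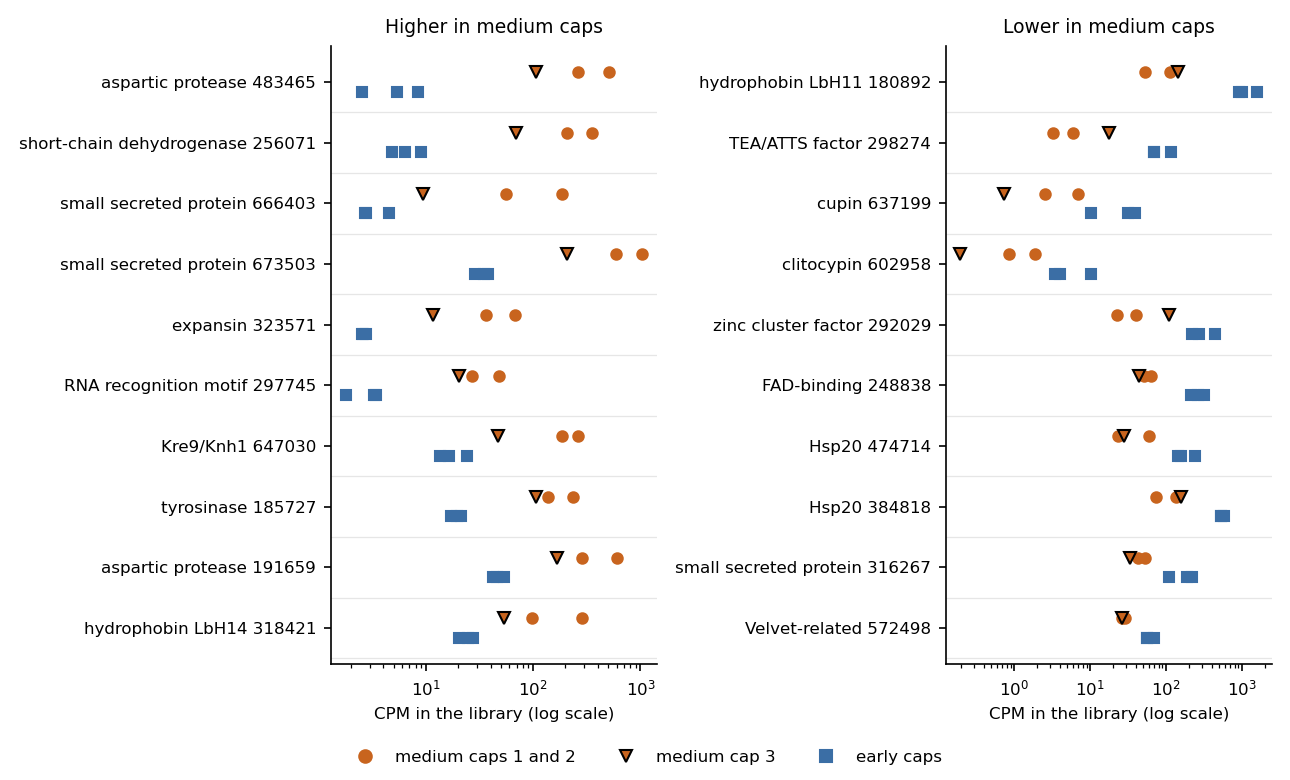
CPM of 10 gene models that were higher and 10 that were lower in medium caps, 1 point per library on a log scale, with medium caps above early caps in each row. In all 20 the medium and early caps do not overlap, and medium cap 3 (triangle) is the medium cap nearest to the early caps in each rise shown.

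Several of the strongest rises had no annotated function. Gene model 485347 had 611, 297 and 20 CPM in medium caps, against 3.86, 4.93 and 10.4 CPM in early caps (5.59 ± 1.18, adjusted p = 0.0161), so medium cap 3 was at a small part of the level of the other medium caps. Gene model 459717 had 1240, 543 and 333 CPM in medium caps, against 56.5, 43.1 and 11.6 CPM in early caps. Gene model 693754 had 1120, 553 and 520 CPM in medium caps, against 91.9, 96.1 and 28.2 CPM in early caps. In late caps 459717 averaged 4550 CPM and 693754 averaged 4880 CPM. Among the most expressed, 660307 had 6050, 4380 and 1790 CPM in medium caps, against 1440, 1500 and 1120 CPM in early caps (1.59 ± 0.40, adjusted p = 0.0369). LbCipC1 (399510) had 3520, 2430 and 1180 CPM in medium caps, against 916, 411 and 1120 CPM in early caps (1.54 ± 0.40, adjusted p = 0.0454). In both genes medium cap 3 was the lowest medium cap, and for LbCipC1 it was barely above the highest early cap.

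The largest annotated fall was that of hydrophobin LbH11 (180892). It had 53.2, 114 and 146 CPM in medium caps, against 916, 991 and 1590 CPM in early caps, with a log2 fold change of -3.48 ± 0.40 (adjusted p = 0.000276), an 11.2-fold fall. All medium caps, medium cap 3 included, were far below the early caps, and the late caps averaged 6.8 CPM. A larger fitted fall was that of unannotated gene model 329267, which had 0, 2 and 0 reads in medium caps, against 22, 15 and 31 reads in early caps. Gene model 399683, also without annotation, had 3.45, 2.26 and 2.22 CPM in medium caps, against 17.2, 5.16 and 61.6 CPM in early caps.

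Transcription factors with strong falls included a TEA/ATTS domain protein (298274), of the family of the fungal developmental regulator AbaA of *Aspergillus*. It had 5.93, 3.22 and 17.8 CPM in medium caps, against 116, 70.3 and 70.7 CPM in early caps (-3.26 ± 0.69, adjusted p = 0.0165). A fungal zinc cluster (Zn2Cys6-type) factor (292029) had 40.3, 22.4 and 110 CPM in medium caps, against 448, 223 and 269 CPM in early caps (-2.45 ± 0.46, adjusted p = 0.0078). In both factors medium cap 3 was the highest medium cap and still below every early cap. The late caps, set against the same medium caps, averaged 111 CPM for the TEA/ATTS protein and 574 CPM for the zinc cluster factor. A protein-tyrosine phosphatase (183494), which removes phosphate from signalling proteins, had 4.12, 1.87 and 11.9 CPM in medium caps, against 46.5, 20.8 and 15.5 CPM in early caps, and 197 CPM on average in late caps. For these 3 genes the mean was lowest at the medium stage of the 3 cap stages.

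Other falls included redox and stress proteins and a cupin. A protein with an FAD-binding domain (248838) had 52.1, 63.3 and 44.5 CPM in medium caps, against 265, 322 and 215 CPM in early caps (-2.33 ± 0.29, adjusted p = 0.000483). Of 27 chaperones, 2 small heat shock proteins of the Hsp20 family, which hold unfolded proteins, fell (with 3 falls in the list without medium cap 3), and an HSP20-like protein (324106) rose. Hsp20 384818 had 137, 73.2 and 158 CPM in medium caps, against 526, 585 and 528 CPM in early caps (-2.16 ± 0.57, adjusted p = 0.0478), and Hsp20 474714 had 23.7, 59.1 and 28 CPM in medium caps, against 144, 243 and 158 CPM in early caps (-2.30 ± 0.53, adjusted p = 0.0239). The HSP20-like 324106 had 41.8, 32.5 and 20.7 CPM in medium caps, against 13.4, 17.5 and 14.4 CPM in early caps (1.07 ± 0.26, adjusted p = 0.034). The family thus had members that moved in both directions. A cupin (637199) had 7.02, 2.52 and 0.74 CPM in medium caps, against 39.7, 10.2 and 31.9 CPM in early caps, and here medium cap 3 was the lowest library. A cytochrome c oxidase VIIc subunit gene model (309736) and a WD40 repeat gene model (383920) also fell, with at most 24 and 6 reads in a medium cap, against at least 67 and 9 reads in an early cap. Unannotated 681920 had 128, 64.1 and 91.3 CPM in medium caps, against 547, 499 and 871 CPM in early caps.

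Gene lists were then read beside all gene models tested, whose median log2 fold change was 0.02 with all medium caps and -0.01 without medium cap 3. Gene models that carry an annotation were called more often than the rest, 1.8% of the 6544 tested as higher and 1.74% as lower, or 3.97% and 6.19% without medium cap 3. The annotation tables were selected by the study, in part on these libraries, so that the counts of a list are not independent evidence of its direction, and no list was tested as a whole.

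Of 241 small secreted proteins tested, the list with the most calls, 14 rose (5.81%) and 4 fell (1.66%), with a median log2 fold change of 0.30, and without medium cap 3, 38 rose and 11 fell. The summed level of the list was 126000, 108000 and 67200 CPM in medium caps, against 51700, 67100 and 59500 CPM in early caps, so that medium cap 3 was at the level of the highest early cap. Among the rises, 673503 had 1040, 598 and 205 CPM in medium caps, against 34.9, 38 and 28.8 CPM in early caps (4.18 ± 0.61, adjusted p = 0.00137). The less expressed 666403 had 184, 55.7 and 9.3 CPM in medium caps, against 4.49, 2.77 and 2.69 CPM in early caps (4.65 ± 0.82, adjusted p = 0.00503). A secreted ribonuclease of the T2 family (691707), which cuts RNA outside the cell or in vacuoles, had 2.54, 2.71 and 1.65 CPM in medium caps, against 0.526, 0.578 and 0.567 CPM in early caps (2.05 ± 0.34, adjusted p = 0.00348). Of the falls besides LbH11, 316267 had 43.1, 53.5 and 33.7 CPM in medium caps, against 109, 222 and 187 CPM in early caps (-1.99 ± 0.31, adjusted p = 0.00231). Small secreted protein 704717 had 923, 666 and 1170 CPM in medium caps, against 2560, 2920 and 2170 CPM in early caps (-1.47 ± 0.37, adjusted p = 0.0406). Of 12 mycorrhiza-induced small secreted proteins, 3 rose without medium cap 3 and with all medium caps 695753 alone rose, with 17.6, 18.2 and 7.15 CPM in medium caps, against 4.08, 5.45 and 4.33 CPM in early caps (1.63 ± 0.33, adjusted p = 0.0119). The most expressed small secreted protein by the authors' RPKM, 301642, had 33300, 18100 and 14200 CPM in medium caps, against 12400, 15600 and 11000 CPM in early caps, and did not pass the test (0.75 ± 0.38, adjusted p = 0.277).

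Of 30 secreted proteases 3 rose (10%) and none fell, at a median of 0.31, and without medium cap 3 there were 6 rises and 1 fall. Besides LbPR_A12, the pepsin-type protease 608373 had 161, 219 and 103 CPM in medium caps, against 34, 56.2 and 48.7 CPM in early caps (1.80 ± 0.37, adjusted p = 0.0145). A subtilase (481040), a serine protease, had 18.7, 8.41 and 5.77 CPM in medium caps, against 2.98, 3.54 and 3.26 CPM in early caps (1.75 ± 0.37, adjusted p = 0.0149). In both genes the 3 medium caps lay above the early caps. The abundant aspartic protease LbPR_A13 (191892) was called only without medium cap 3, with 2640, 1720 and 1210 CPM in medium caps, against 488, 483 and 839 CPM in early caps (1.62 ± 0.50, adjusted p = 0.0876 with all caps and 0.0233 without medium cap 3). Clitocypins, fungal inhibitors of cysteine proteases, had 1 fall and no rise with all medium caps, among 10 protease inhibitors tested, and 1 fall and 1 rise without medium cap 3. The rise was that of clitocypin 385833, which had 10.3, 6.05 and 3.16 CPM in medium caps, against 3.24, 4.05 and 3.57 CPM in early caps (0.85 ± 0.33, adjusted p = 0.166 with all caps, and 1.15, adjusted p = 0.0105 without medium cap 3). Medium cap 3 was below every early cap in this gene. Clitocypin 602958 had 1.88, 0.858 and 0.197 CPM in medium caps, against 3.49, 4.01 and 10.2 CPM in early caps (-2.56 ± 0.57, adjusted p = 0.0219). The much more abundant clitocypin 318727 had 995, 1410 and 783 CPM in medium caps, against 1970, 622 and 6110 CPM in early caps, with medium and early caps overlapping (-1.45 ± 0.61, adjusted p = 0.199).

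Glycoside hydrolases of the wall moved in small numbers. Of 7 chitinases of family GH18, which cut the wall's chitin, 2 rose and 1 fell, at a median of 0.76, and 3 rose and 1 fell without medium cap 3. GH18 231399 had 7.32, 6.22 and 2.91 CPM in medium caps, against 1.36, 1.77 and 1.09 CPM in early caps (1.97 ± 0.30, adjusted p = 0.00183). GH18 585735 had 7.54, 7.04 and 3.01 CPM in medium caps, against 2.13, 2 and 1.2 CPM in early caps (1.73 ± 0.35, adjusted p = 0.0115). The member that fell, 236861, had 2.31, 1.93 and 1.85 CPM in medium caps, against 5.57, 2.6 and 7.4 CPM in early caps (-1.35 ± 0.32, adjusted p = 0.029). Both rising chitinases were high in medium caps 1 and 2 and intermediate in medium cap 3. Of 18 members of GH16, a family of beta-glucanases, 305507 rose, with 3.87, 3.63 and 1.53 CPM in medium caps, against 1.05, 1.52 and 1.18 CPM in early caps. Of 13 members of GH5, GH12 and AA9, the GH5 387953 rose to 183, 101 and 107 CPM in medium caps, against 73.1, 61.5 and 49.5 CPM in early caps, and the GH12 385634 to 31.9, 22.3 and 15.3 CPM in medium caps, against 12.3, 11.4 and 10.4 CPM in early caps. The 8 members of CE4 (chitin deacetylase type) had no call, at a median of 0.02.

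The enzymes that make chitin and glucan had no call with all medium caps but 2 falls among 6 without medium cap 3. The beta-1,3-glucan synthase of family GT48 (317105) had 263, 146 and 694 CPM in medium caps, against 643, 482 and 487 CPM in early caps. A chitin synthase with a myosin motor domain (676353) had 24.8, 19.1 and 113 CPM in medium caps, against 77, 64.5 and 67.9 CPM in early caps. In both genes medium caps 1 and 2 lay below and medium cap 3 above all early caps. For 317105 and then 676353 the log2 fold changes were -0.55 ± 0.43 and -0.42 ± 0.50 with all medium caps (adjusted p = 0.488 and 0.663), and -1.42 and -1.69 without medium cap 3 (adjusted p = 0.0141 and 0.00479). The median of the list was -0.17 with medium cap 3 and -0.63 without it.

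Hydrophobins moved in both directions. Of 10 tested, LbH14 rose, and LbH11 and 399291 fell. Hydrophobin 399291 was low, with 2.44, 2.98 and 2.47 CPM in medium caps, against 4.76, 4.72 and 6.41 CPM in early caps (-1.01 ± 0.17, adjusted p = 0.00442) and was not called without medium cap 3. The most expressed hydrophobin by RPKM, 624234, had 883, 1210 and 914 CPM in medium caps, against 1300, 1840 and 1770 CPM in early caps, without passing the test (-0.71 ± 0.35, adjusted p = 0.262). The summed level of the list was 1230, 1430 and 1130 CPM in medium caps, against 2260, 2860 and 3400 CPM in early caps, and the medium caps did not overlap with the early caps. LbH11 and 624234 made up most of this sum, whereas the median log2 fold change over the 10 members was 0.12 and 6 of them had a positive fold change.

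**Figure D4:**
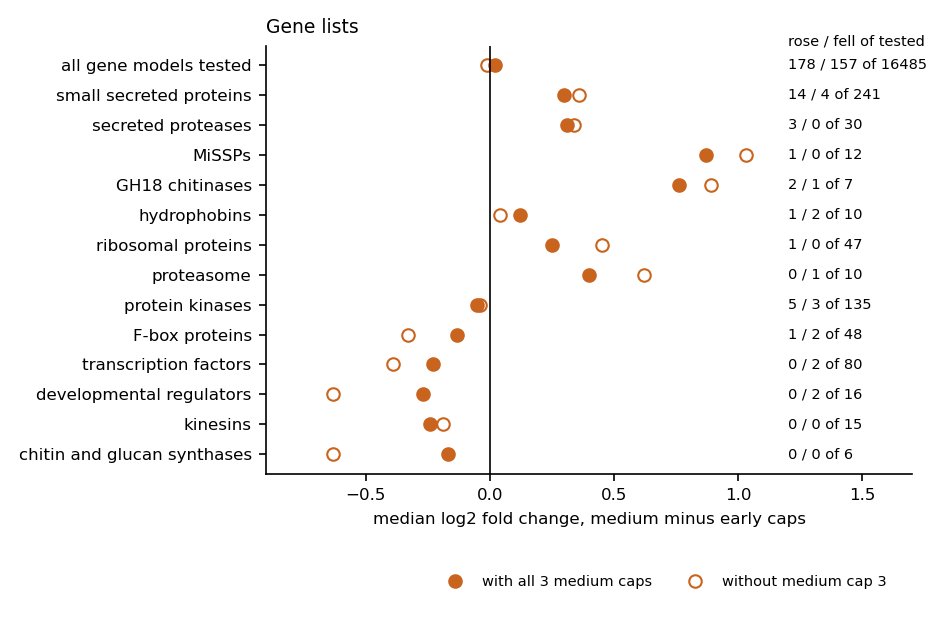
Median log2 fold change (medium minus early caps) of 13 gene lists and of all gene models tested, with all 3 medium caps (filled) and without medium cap 3 (open), and the number of members that rose and fell of those tested. Small secreted proteins (14 rises) hold the most calls, and the medians of developmental regulators and of chitin and glucan synthases both move to -0.63 without medium cap 3.

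Of 80 transcription factors none rose and 2 fell, the TEA/ATTS protein and 303095, which had 57.8, 53.8 and 68.4 CPM in medium caps, against 146, 119 and 149 CPM in early caps (-1.20 ± 0.28, adjusted p = 0.0266). The zinc cluster factor 292029, which fell, and the homeobox-like gene model 489990, which rose, were not members of this list. Whether or not they passed the test, 52 of the 80 had a negative and 28 a positive fold change, and the median was -0.23. Without medium cap 3, where 6.19% of annotated gene models fell and 3.97% rose, 11 of 81 factors fell, none rose and the median was -0.39. Among them were 4 C2H2 zinc finger factors, for which medium cap 3 lay within the early caps, above them or just below them. Factor 691497 had 33.9, 21.3 and 97.9 CPM in medium caps, against 171, 104 and 106 CPM in early caps (-2.23 without medium cap 3, adjusted p = 0.00113).

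Of 16 developmental regulators, taken as homologs of genes with known roles in fruiting, 2 fell and none rose, at a median of -0.27. The TEA/ATTS protein 298274 was also a member of this list and is the other fall. The Velvet factor 572498, of a family that ties development to light and secondary metabolism in ascomycetes, had 26.4, 28.5 and 26.1 CPM in medium caps, against 56, 56.3 and 68.9 CPM in early caps. The fall was as large in medium cap 3 as in the others (-1.16 ± 0.19, adjusted p = 0.00345, and -1.17 without medium cap 3). The homolog of the fruiting regulator Fst3 (585149) had 86.8, 55.4 and 180 CPM in medium caps, against 271, 194 and 203 CPM in early caps, and was called only without medium cap 3 (-1.05 ± 0.32, adjusted p = 0.0796 with all caps, and -1.67, adjusted p = 0.000933 without). The summed level of the list was 811, 717 and 1320 CPM in medium caps, against 1490, 1260 and 1230 CPM in early caps, so that medium cap 3 was within the early caps.

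Signalling and protein turnover genes moved in both directions. Of 135 protein kinases 5 rose (3.7%) and 3 fell (2.22%), whereas without medium cap 3 there were 7 rises and 9 falls. Kinase 599007 had 617, 498 and 386 CPM in medium caps, against 216, 237 and 242 CPM in early caps (1.11 ± 0.18, adjusted p = 0.00347). Kinase 246217 had 14.4, 7.02 and 6.29 CPM in medium caps, against 3.31, 2.12 and 1.39 CPM in early caps (2.03 ± 0.51, adjusted p = 0.0372). The fall was strongest in 673052, which is annotated as kinase and phosphatase, with 8.58, 5.54 and 22.3 CPM in medium caps, against 71.5, 33.5 and 41.9 CPM in early caps (-2.02 ± 0.44, adjusted p = 0.0178). Of 48 F-box proteins, the substrate adaptors of ubiquitin ligases, 1 rose and 2 fell, against 2 rises and 7 falls without medium cap 3, where the median was -0.33. In the fit without medium cap 3, 3.97% of annotated gene models rose and 6.19% fell. F-box 462004 had 24.4, 20.1 and 24.1 CPM in medium caps, against 9.86, 9.02 and 11.2 CPM in early caps (1.19 ± 0.17, adjusted p = 0.00129). F-box 704262 had 22.6, 12.5 and 33.6 CPM in medium caps, against 102, 49.3 and 81 CPM in early caps (-1.76 ± 0.37, adjusted p = 0.0146). Medium cap 3 was alongside the other medium caps in the F-box gene that rose. Of 13 BTB proteins, adaptors of another type of ubiquitin ligase, 2 fell without medium cap 3 and 663722 fell in both fits, with 216, 210 and 189 CPM in medium caps, against 374, 497 and 431 CPM in early caps (-1.08 ± 0.20, adjusted p = 0.00691).

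Lists of growth and housekeeping genes had few calls. No member of the nucleosome (23 tested), DNA replication and repair (26), kinesin (15), septin (3), pheromone and receptor (12), aquaporin (6), ammonium transport (5) or amino acid transport (19) lists was called with all medium caps. Without medium cap 3 there was 1 rise in the kinesin list, that of 707724, whose annotation is microtubule motor and dynein ATPase activity. There was also 1 rise and 1 fall each among the DNA replication and the amino acid transport genes. Ribosomal proteins had 1 rise among 47 (2 without medium cap 3) and a median of 0.25, and 39 of the 47 had a positive fold change. Their summed level was 6180, 7440 and 3600 CPM in medium caps, against 3830, 5730 and 5820 CPM in early caps. Medium caps 1 and 2 were thus above all early caps and medium cap 3 below them. Of 10 proteasome genes, 9 had a positive fold change, but the only call was a fall, in the proteasome activator 294752, with 15.2, 26.8 and 13.7 CPM in medium caps, against 36.5, 63.8 and 51.1 CPM in early caps (-1.44 ± 0.31, adjusted p = 0.0166). Of 13 cyclins and their kinases, 3 rose and 1 fell without medium cap 3, and with all medium caps the kinase 244875 alone rose, with 1.69, 1.4 and 1.16 CPM in medium caps, against 0.679, 0.482 and 0.315 CPM in early caps.

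Metabolic and transport genes were called singly. A protein with an oxidoreductase annotation in fatty acid or sterol metabolism (670672) had 682, 941 and 283 CPM in medium caps, against 94, 206 and 76.5 CPM in early caps (2.34 ± 0.53, adjusted p = 0.022). A fatty acid desaturase, FAD12-3 (309734), which adds double bonds to membrane lipids, had 16.7, 16.5 and 16.8 CPM in medium caps, against 40, 24.7 and 43.8 CPM in early caps (-1.12 ± 0.22, adjusted p = 0.00995). A transporter of the major facilitator sugar type (680250) had 190, 119 and 116 CPM in medium caps, against 32.4, 32.7 and 27.8 CPM in early caps (2.19 ± 0.34, adjusted p = 0.00202). The peroxidase 293829, which uses peroxides to oxidize its substrates, had 314, 181 and 123 CPM in medium caps, against 72, 64.8 and 59.1 CPM in early caps (1.66 ± 0.32, adjusted p = 0.00848). All 4 genes separated the stages in every library. Of 7 terpene synthases, which make terpenoid skeletons, 2 fell without medium cap 3 and 1 with all medium caps, namely 484390, which had 41.4, 33.7 and 57 CPM in medium caps, against 127, 123 and 176 CPM in early caps (-1.69 ± 0.37, adjusted p = 0.0182). A cytochrome P450 monooxygenase (236602) had 23.2, 22.1 and 26 CPM in medium caps, against 46.9, 65 and 63 CPM in early caps (-1.30 ± 0.19, adjusted p = 0.0014). The multicopper oxidase lcc4 (399746), of the laccase type that oxidizes phenols, had 12.5, 7.28 and 10.8 CPM in medium caps, against 20.8, 21.7 and 55.1 CPM in early caps (-1.68 ± 0.33, adjusted p = 0.00977). In these 3 falls medium cap 3 was with the other medium caps.

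The stipe elongation genes known from *Coprinopsis cinerea* were not called. The homolog of eln3, a glycosyltransferase, had 242, 223 and 339 CPM in medium caps, against 317, 295 and 266 CPM in early caps (-0.13 ± 0.33, adjusted p = 0.858). Its libraries overlapped between the stages. The summed level of eln3 and both eln3-like genes was 986, 894 and 1560 CPM in medium caps, against 1140, 1230 and 918 CPM in early caps, so that the highest sum was that of medium cap 3.

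The rises called only without medium cap 3 included some carried by medium cap 1. The largest were the small secreted proteins 477175 and 617208, of which 617208 is annotated as mycorrhiza-induced, and the unannotated 674969 and 475478. Gene model 617208 had 128, 7.47 and 0.641 CPM in medium caps, against 1.47, 0.925 and 0.583 CPM in early caps, and 477175 had 89.2, 4.86 and 0.567 CPM in medium caps, against 0.219, 0.327 and 0.126 CPM in early caps. In both, medium cap 1 was far above medium cap 2, which was in turn above medium cap 3 and every early cap. A set of 24 gene models was at least 4 times as high in medium cap 1 as in any other medium or early cap library on the scale of CPM + 1, a criterion chosen after values were seen, against 2 gene models for early cap 3 and none for the other 4 of these libraries. Of the 24, 20 were also at least 4 times as high as in every late cap, which was not counted over all gene models. None of the 24 was called with all medium caps and 5 were called without medium cap 3. The largest falls called only without medium cap 3 (657165, 603132, 312394 and 579970, all unannotated) had at most 1 read in medium caps 1 and 2, against 1 to 23 reads in an early cap, so that no fold is given for them.

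Stipes of the same stages allowed a comparison that shares no library with the caps, although both came from the same fit and its estimate of the spread. In medium stipes against early stipes 145 gene models rose (0.88%) and 264 fell (1.6%). Medium stipes 1 and 2 had a biological coefficient of variation of 4.15%, against 39.1% and 38.7% to medium stipe 3. Whether the 3 are independent samples is not known, so adjusted p in stipes may be too small. Since the estimate of the spread is shared by all groups, the same holds for adjusted p in caps. Calls in caps were 139 rises and 128 falls with near-identical library pairs summed, and 63 and 60 in the fit of only the libraries compared. Falls were shared by 72 gene models, 45.9% of the cap falls and 27.3% of the stipe falls, and rises by 27, which are 15.2% of the cap rises and 18.6% of the stipe rises. No gene model was called in opposite directions. Over the gene models called in caps, the median log2 fold change in stipes was 0.57 for the cap rises and -1.10 for the cap falls. LbH11 had 273, 280 and 177 CPM in medium stipes, against 4680, 4630 and 2230 CPM in early stipes (-3.98, adjusted p = 7.94e-05). The TEA/ATTS protein had 13.1, 13.2 and 12.9 CPM in medium stipes, against 152, 265 and 101 CPM in early stipes, and the FAD-binding protein 248838 had 40.4, 37.3 and 56.5 CPM in medium stipes, against 506, 512 and 230 CPM in early stipes. The expansin-like 323571 was not called in stipes, with 5.5, 4.7 and 7.3 CPM in medium stipes, against 2.98, 2.66 and 2.54 CPM in early stipes (1.10, adjusted p = 0.169). For 323571 the change in caps minus that in stipes was 2.77 ± 0.64 with all caps (adjusted p = 0.161). Without medium cap 3, a library singled out by its own values, it was 3.18 ± 0.45 (adjusted p = 0.00276). A difference between caps and stipes was thus called only without that library.

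**Figure D5:**
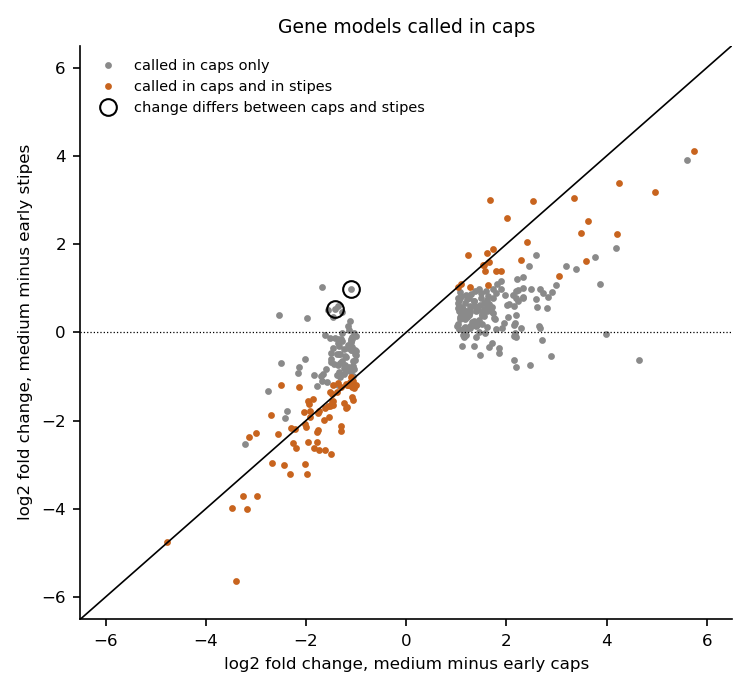
Log2 fold change in caps (horizontal axis) against that in stipes (vertical axis), medium minus early, for the 335 gene models called in caps. Gene models also called in stipes (orange) number 72 among the falls and 27 among the rises, and circles mark proline dehydrogenase 327455 and nitrite reductase-like 291348, whose change differed between the tissues.

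The difference between the change in caps and the change in stipes was tested directly and was called for 3 gene models (0.0182% of those tested), all with a lower difference in caps than in stipes. Without medium cap 3 it was called for 1025 gene models, of which 388 had the higher difference in caps and 637 the lower. At an unadjusted p under 0.05 and the same bound on size there were 673, and DESeq2 called 105. Proline dehydrogenase (327455), the initial enzyme of proline breakdown, had 67.9, 55.7 and 82.3 CPM in medium caps, against 146, 162 and 136 CPM in early caps, and 243, 236 and 197 CPM in medium stipes, against 134, 118 and 88.2 CPM in early stipes. It fell in caps (-1.11 ± 0.19, adjusted p = 0.00437), while in stipes the log2 fold change was 0.99 (adjusted p = 0.007), just under the bound on size. A nitrite reductase-like gene model (291348), of the enzymes that turn nitrite into ammonium, had 12.6, 13 and 13.7 CPM in medium caps, against 37.4, 34 and 34.3 CPM in early caps (-1.43 ± 0.16, adjusted p = 0.000243). In stipes it had 21.3, 21.8 and 19.1 CPM at the medium stage, against 16.2, 16.1 and 10.7 CPM at the early stage. Without medium stipe 3 the difference between tissues was called for 155 gene models.

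Detection hardly separated the stages. With a mean above 5 reads over the 3 libraries, 16436 gene models were detected in medium caps and 16460 in early caps. Of these 16299 were shared, 137 passed the bound only in medium caps and 161 only in early caps. A gene model with a count of 0 in a library may still have an expected count of up to 3 reads, by counting error alone, so that these gene models cannot be called absent at this depth.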

How the data were processed

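Caps and stipes of early, medium and late basidiocarps were sequenced as 3 libraries per group. The authors counted reads with CLC Genomics Workbench on the transcripts of the version 2 genome and deposited, per gene model, raw read counts and RPKM (reads scaled to transcript length and library size). Whether counts are of unique or all mapped reads and whether strand was used is not given in the sources used here, so that near-identical copies and overlapping genes are uncertain. RPKM served only to find the most expressed list members. Counts of 23130 gene models were tested in R 4.3.3 with edgeR 4.0.16 (filterByExpr, TMM, quasi-likelihood fit of all 18 libraries with a mean per group, Benjamini-Hochberg adjustment). DESeq2 1.42.0, limma 3.58.1, other filters, scalings and thresholds, a replicate block and the omission of each library were alternatives, and summing near-identical library pairs, the block within the 6 libraries and the alternatives without medium cap 3 were chosen after seeing the data. The fits were tested on simulated data. Medium stipes 1 and 2 and late caps 2 and 3 were nearly alike (biological coefficients of variation of 4.15% and 4.04%) and were kept separate. They enter the spread estimated over all groups, so adjusted p in caps may be too small as well. P-values measure the spread between libraries.

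The comparison and gene lists were chosen with earlier results of these data known. Functions come from annotation columns of the study's supplementary tables, which were used in part, and from a RefSeq table whose gene numbers matched 6580 gene models. Its assembly is not that of the counts, so no coordinates are given. By rule the text names, among called gene models without overlap of libraries, the 10 largest annotated and the 4 largest rises and falls of any kind, the 5 largest changes in CPM each way, called and most expressed list members for the lists with the most calls, and the 4 largest changes each way called only without medium cap 3. Gene models named for the difference between caps and stipes or for medium cap 1 were chosen after their values were seen.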

Additional observations from a re-analysis of the deposited data

Results flagged for a closer look

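The change from early to medium differed between caps and stipes for 3 gene models by edgeR's test of the difference (medium minus early caps, minus medium minus early stipes). The difference was -2.10 for proline dehydrogenase 327455, -1.96 for the nitrite reductase-like 291348 and -1.15 for the unannotated 399837 on the log2 scale. All 3 were also called without medium cap 3, with adjusted p = 0.00102, 0.00102 and 0.00252. Gene model 399837 had 39.2, 34 and 40.7 CPM in medium caps, against 46.3, 48.1 and 47.4 CPM in early caps, and 58.7, 60.1 and 58 CPM in medium stipes, against 32.9, 34.9 and 31.6 CPM in early stipes.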

How the results depend on the processing

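The numbers of rises and falls moved with the test and the libraries. Of the 64 called gene models named in the text none changed direction under the 14 alternatives computed for single gene models. Medium and early caps did not overlap in 328 of all 335 calls, so a reversal was unlikely beforehand and nothing is read from its absence. Many calls were lost, 36 of 63 in the fit of only the libraries compared, 35 and 27 when medium caps 1 and 2 were omitted in turn, 28, 16 and 35 when early caps 1, 2 and 3 were, 9 with the replicate block and at most 2 under each other alternative. LbCipC1 (399510) was called in 6, 387953 in 5 and 660307 in 7 of the 14. Against 178 rises and 157 falls, limma's voom called 726 and 701, DESeq2 called 237 falls, the fit of only the libraries compared called 63 and 60, and glmTreat against a log2 fold change of 1 called 20 and 8. With no minimum fold change there were 306 and 244, and at an adjusted p under 0.01 there were 92 and 59. Leaving out a cap library gave 84 to 440 rises and 59 to 838 falls, namely 84 and 67 when medium cap 1 was omitted, 108 and 59 for medium cap 2, 440 and 838 for medium cap 3, 90 and 59 for early cap 1 and 95 and 86 for early cap 3. The 440 rises without medium cap 3 were 281 at an adjusted p under 0.01. The cause of these shifts was not tested.

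The count of 3 differences between caps and stipes was 105 in DESeq2, 2386 in voom, 5 with no filter beyond 1 read, 1 in the fit of only the libraries compared, 0 with glmTreat and 1 with near-identical library pairs summed. It ranged from 2 to 1025 when a library was left out, namely 1025 for medium cap 3, 155 for medium stipe 3, 12 for early stipe 3 and 5 for early cap 1 and for early cap 3. The deviations of same-numbered medium and early caps correlated at 0, 0.35 and -0.10, and those of differently numbered caps at -0.43 to 0.31. The main fit did not treat replicate numbers as pairs. Whether a cap and a stipe of the same number came from the same basidiocarps was not tested. The test of the difference between caps and stipes treats them as independent. With the replicate number as a block there were 174 rises, 133 falls and 3 differences between caps and stipes, and within the libraries compared alone the block gave 94 rises and 66 falls. With near-identical library pairs summed there were 139 rises and 128 falls.

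Gene models with few reads in a library limit the folds that can be given, and intervals from counts cover counting error only.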

Other observations

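The 24 gene models that were at least 4 times as high in medium cap 1 as in any other medium or early cap included 2 glutathione transferases (296671 and 674829), which conjugate reactive compounds to glutathione, the thioredoxin LbTrx1 (181679), a DyP-type peroxidase (392869), the laccase lcc6 (399748) and a cytochrome P450 (609922). Glutathione transferase 674829 had 1350, 106 and 11.1 CPM in medium caps, against 56.5, 16.5 and 12.9 CPM in early caps. In the medium stipes it had 17.8, 17.1 and 5720 CPM, so that medium stipe 3 held nearly all of it. Of the 24 gene models, 23 were at least 4 times as high in medium stipe 3 as in medium stipes 1 and 2 on the same scale, as were 232 of all 23130 gene models. In early stipe 2, 8 of the 24 were at least 4 times as high as in the other early stipes. That was not counted over all gene models, so nothing is read from the 8. The DyP-type peroxidase had 342, 41.4 and 32.3 CPM in medium caps, against 36.3, 23.6 and 10 CPM in early caps. It had 265, 208 and 214 CPM in late caps, which were thus not far below medium cap 1, and 861 CPM in medium stipe 3 and 798 CPM in early stipe 2. Whether medium cap 1, medium stipe 3 and early stipe 2 have anything in common was not tested.

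Among gene models that RefSeq symbols name as chromatin proteins, a list made after values were seen, none of 74 was called with all medium caps, at a median of -0.17. Without medium cap 3, where 5.04% of all gene models tested fell and 2.65% rose, 13 of the 74 fell and 1 rose, at a median of -0.32. Their summed level was 3510, 3250 and 4520 CPM in medium caps, against 4290, 4360 and 4270 CPM in early caps, with medium cap 3 above every early cap.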
